A study of Mus musculus with 12 samples.

Results

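The 41 genes described here encode heat shock proteins, cytosolic and mitochondrial chaperones, their cochaperones, 7 subunits of the CCT chaperonin and the heat shock factors Hsf1 and Hsf2. They were chosen by symbol, and all 41 were found among the 52535 genes of the count tables. The libraries are mRNA-seq of mouse T-ALL (T-cell acute lymphoblastic leukemia) lines 240, 242 and 352. The PKF118-310 group holds 1 library of each line exposed to PKF118-310, an inhibitor that keeps β-catenin from its Tcf partners, and the control group holds 1 library of each line. The study describes the controls as placebo-treated. Cells of all 6 libraries carried the genotype Akt2;Dlx5 double transgenic, in which the Lck promoter, active in T cells, drives the homeobox gene Dlx5 and an activated Akt2 kinase. Each line was cultured as 1 established lymphoma line, so n is 3 lines and the spread is that between lines. The labels describe the paired files of a library as lanes, and these were summed. A heatmap description in the study speaks instead of separately grown controls and treated cultures of each line, in which case n, and with it the error of each fit, would differ.

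Chaperones bind unfolded or partly folded proteins and let them fold, refold or be degraded. HSP70 works with J-domain proteins, which deliver clients and trigger ATP hydrolysis, and with nucleotide exchange factors, which release them, and HSP90 then completes many kinases and transcription factors with the help of its own cochaperones. Some of these genes are transcribed at a steady rate in every cell, while others are held low until unfolded protein frees heat shock factor 1 (HSF1), which binds repeats of the motif nGAAn in their promoters. The comparison made here sets the inducible against the constitutive genes, and the treated against the control cells.

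The libraries differed in depth. Total counts were 3160824, 604984 and 13766638 in PKF118-310-treated cells of lines 240, 242 and 352, and 4031144, 3354980 and 13221186 in their controls. The treated library of line 242 stood apart. It had the fewest counts but the most genes detected (21241, against 14175 in its control). More genes were also detected in treated than in control cells of line 240 (18155 against 15150) and line 352 (21049 against 17495). Mitochondrial transcripts took 11.8% of the counts in the treated library of line 242, against 1.84% to 3.10% elsewhere. The summed level of 12 T-cell markers was 2732 CPM (the usual depth-scaled count, here with library sizes corrected by the trimmed mean of M-values, TMM) in that library and 3309 to 6031 CPM in the others. Ptcra was at 0 there, and Cd5 was at 0 both there and in the control of line 242. Markers of other cell types, leaving out Pecam1, summed to 58.4 CPM in the treated library of line 242 and to 0.247 to 3.17 CPM in the rest, with Lyz2, S100a8 and Hbb-bs among those at 0 in it. This sum was also higher in treated cells of lines 240 and 352 (3.17 and 1.73 CPM) than in their controls (0.247 and 0.731 CPM). In bulk RNA, fewer cells of a type and less RNA per cell cannot be told apart. A count of 0 allows up to 3 counts, which is 4.96 CPM in the treated library of line 242 and 0.218 to 0.949 CPM in the other 5. Results are therefore given for the 3 lines and for lines 240 and 352 alone. The fit of lines 240 and 352 was also chosen with it known that no gene passed in 3 lines.

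With the line as a block, the edgeR quasi-likelihood test over 10331 genes in 3 lines called 0 of 38 tested members at an adjusted p below 0.05. The same test called 0.0% of all genes, either higher or lower. At an unadjusted p below 0.05 it gave 2 members, Hspa1b and Dnaja1, both higher, and 570 genes in all, and DESeq2 called 1 member, Hspa1b. Limma voom with sample weights, which gave both libraries of line 242 less weight, called 3 members higher and 1 lower. The members left out by the filter on low counts were Hspa1a, Hspb1 and Serpinh1. In lines 240 and 352 alone (n = 2 lines, 11760 genes), 12 of 40 tested members were higher after PKF118-310, where 5.01% of all genes were, and 1 was lower, where 5.92% of all genes were. Only Hspb1 was not tested there. Hspa1a and Hspa1b, both among the 12, passed the filter through their treated libraries. Neither was tested when at least 10 counts in every library were required. These 13 calls rest on leaving out line 242, since leaving out line 240 or line 352 instead called 0 members. They also rest on pairing the libraries of a line. Without the replicate block 0 members were higher and 0 lower by the same edgeR test, with 10 members at an unadjusted p below 0.05, and DESeq2 with the block called 9 members, 7 of them among the 13.

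The members furthest above their controls were Hspa1a and Hspa1b, neighbouring genes for the stress-inducible HSP70. Hspa1b (chromosome 17, 34956436 to 34959238, minus strand, mm10) had 14, 7 and 384 counts in PKF118-310-treated cells of lines 240, 242 and 352, against 5, 3 and 11 counts in their controls. Scaled for depth, these were 4.44, 12.02 and 26.5 CPM in treated cells and 1.24, 0.938 and 0.804 CPM in controls. All 3 treated libraries lay above all 3 controls, so the groups did not overlap, as was true in this direction for 2.95% of the genes tested and for no other tested member. No tested member lay below its controls in this way, where 3.15% of genes did. The controls of Hspa1b were too low for the low-count filter, so it was tested only because its treated libraries passed. That fixed the gap between its groups in advance, and the gap is not separate support. The fold over control was 3.59 for line 240 (95% interval for counting error alone, 1.22 to 12.7). It was 12.8 for line 242 (2.93 to 76.8) and reached 33.0 for line 352 (18.2 to 66.6). The treated library of line 242 also held counts of genes absent from its control. Of 12 markers of other cell types, 4 were at 0 in it and 10 in its control, with Epcam at 11 and Col1a1 at 14 counts against 0. Whether the Hspa1b counts of line 242 are of this kind was not tested. Most of the Hspa1b counts came from line 352. The fit of 3 lines gave a log2 fold change of 3.74 ± 0.79 (SE, edgeR quasi-likelihood adjusted p = 0.842). Lines 240 and 352 alone gave 4.36 ± 0.51 (edgeR adjusted p = 4.94e-04).

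Hspa1a (chromosome 17, 34969190 to 34972156, minus strand) had 4, 1 and 309 counts in treated cells of lines 240, 242 and 352, against 1, 0 and 5 counts in controls. Only line 352 held more than a few counts, and its fold was 58.4 (24.7 to 181). In line 240 the ratio was 5.13 with a counting interval of 0.508 to 253, so no difference was detectable there at this depth, and in line 242 both libraries were under the limit that a count of 0 allows. The fit of lines 240 and 352 gave a log2 fold change of 5.51 ± 0.56 (SE, edgeR quasi-likelihood adjusted p = 1.62e-04). Hspa1a passed the low-count filter of this fit through its treated libraries, and Hspa1b passed that of both fits in the same way. Because the filter admitted them on the values then tested, their p is not separate support. The longest transcripts of Hspa1a and Hspa1b are 92.96% identical over 2712 aligned bases, with 1 run of 638 identical bases. How reads that match both were counted is not given in the sources used here, so their split is uncertain. Summed over the pair, counts were 18, 8 and 693 in treated cells, against 6, 3 and 16 in controls, or 3.85-fold (1.46 to 11.8), 14.6-fold (3.52 to 85.7) and 40.9-fold (25.01 to 72.0) in lines 240, 242 and 352.

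Hspb1, the small heat shock protein HSP27 (chromosome 5, 135887919 to 135889563, plus strand), was counted in 1 library alone. It had 57 counts in treated cells of line 352 and 0 in the other 5 libraries, which is at least 17.9-fold higher than its control when 3 counts per library are taken as the limit. Lines 240 and 242 gave no value for this gene on either side. Serpinh1, the collagen chaperone HSP47, had 24 counts in treated and 24 in control cells of line 352, 1 count in treated cells of line 242 and 0 in the remaining libraries.

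The promoter sequences of Hspa1b and Hspb1 are shown as examples of genes with few counts in control cells and more in treated cells of line 352. Each is the stretch of 130 bases before the RefSeq start on GRCm38.p6, and capitals mark every match to GAANNTTC or TTCNNGAA, 2 head-to-head or tail-to-tail units of the HSF motif. The Hspa1b stretch lies at chr17:34959239-34959368 on the minus strand and the Hspb1 stretch at chr5:135887789-135887918 on the plus strand.
Hspa1b: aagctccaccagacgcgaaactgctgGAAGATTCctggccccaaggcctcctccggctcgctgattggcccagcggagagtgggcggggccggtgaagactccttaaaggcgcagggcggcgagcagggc
Hspb1: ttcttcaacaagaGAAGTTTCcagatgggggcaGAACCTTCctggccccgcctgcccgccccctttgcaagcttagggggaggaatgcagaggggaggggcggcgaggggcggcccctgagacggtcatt
The match in Hspa1b begins 104 bases before the start. The 250 bases before the starts of Hspa1a and Hspa1b differ at 3 positions, and the match is at the same distance in both. Hspb1 holds 2 matches, beginning 117 and 97 bases before its start.

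For members with a smaller change or none, the 30 bases around the match are enough to show how the units are arranged. They lie at chr5:149636351-149636380 (Hsph1, minus strand), chr1:55088053-55088082 (Hspe1, plus strand), chr4:40722333-40722362 (Dnaja1, plus strand) and chr5:29735844-29735873 (Dnajb6, plus strand), with the matches in capitals.
Hsph1: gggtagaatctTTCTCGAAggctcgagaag
Hspe1: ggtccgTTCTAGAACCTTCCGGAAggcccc
Dnaja1: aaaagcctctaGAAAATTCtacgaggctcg
Dnajb6: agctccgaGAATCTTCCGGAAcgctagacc
Hspe1 and Hspd1 are transcribed away from each other, and the Hspe1 stretch is also in the window of 1 start of Hspd1, read on the other strand. The Dnajb6 stretch holds 3 units in a row (GAANNTTCNNGAA or TTCNNGAANNTTC), and the Hspe1 stretch holds 4, which count as 2 overlapping runs of 3. Among 27025 genes with a RefSeq start, 0.51% held such a run in the 250 bases before a start, and 14.55% held at least 1 pair of units. Of the members, 34 had an entry and 14 of them (41.18%) held a pair. A run of 3 units stood before 3 of the 34 (8.82%). These were 2 mitochondrial genes, which share 1 stretch, and 1 constitutive cytosolic gene, with 0 of the 10 matched heat-inducible genes. Hspa8, Hspa9, Hsp90aa1, Hsp90ab1, Hsf1, St13 and Cct4 were not matched.

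A pair of units stood before 6 of the 11 matched members that were higher in lines 240 and 352 (54.55%) and before 8 of the 23 other matched members (34.78%). Of the 6, Hspa1a and Hspa1b have nearly the same promoter, and Hspd1 and Hspe1 share the same stretch. The shares are counted by gene, so such sites enter more than once. The share was 12.04% among the 8599 matched genes of all those tested in these lines. By role, it was 60.0% of the 10 matched heat-inducible genes, 14.29% of 7 constitutive cytosolic genes, 42.86% of 7 cochaperone genes, 33.33% of 6 CCT genes and 66.67% of 3 mitochondrial genes. Dnajb6, with its run of units, had a log2 fold change of 0.08 ± 0.11 in lines 240 and 352 (SE, edgeR quasi-likelihood adjusted p = 0.708). A match says which letters are present and not that a factor binds there.

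**Figure D1:**
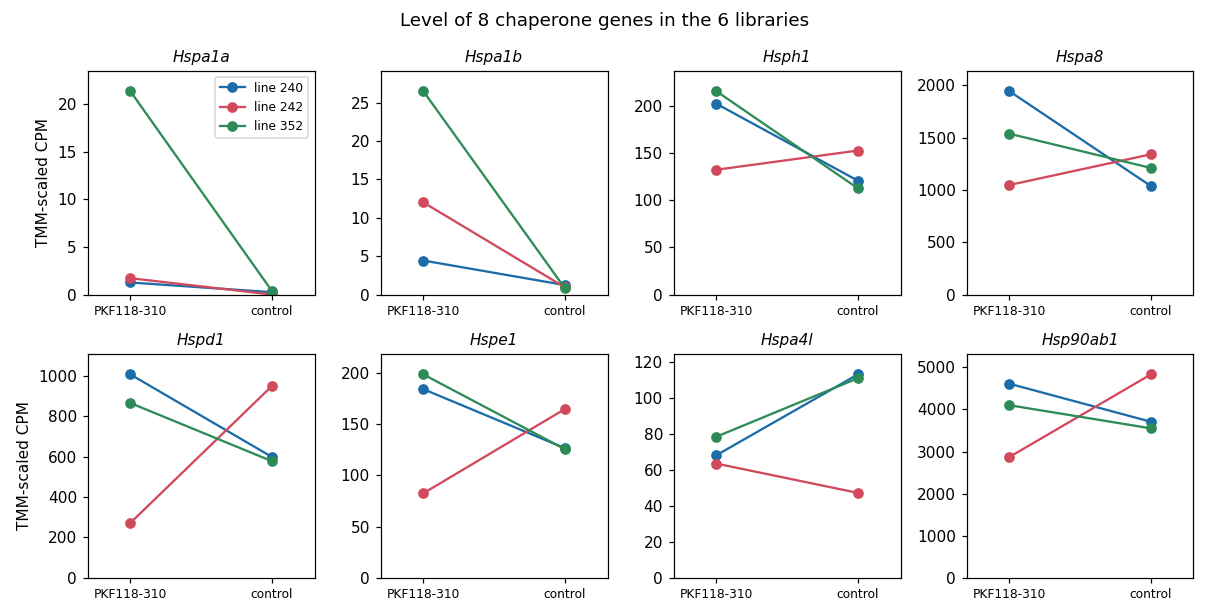
Level of 8 chaperone genes in the 6 libraries, as TMM-scaled CPM, with PKF118-310 on the left and control on the right of each panel, 1 point per library and a line joining the libraries of each cell line. Hspa1b stands higher in the treated library of all 3 lines, reaching 26.5 CPM in line 352, while Hspd1 and Hspe1 are higher in treated cells of lines 240 and 352 and lower in those of line 242.

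Among the other heat-inducible members, Hsph1, Dnaja1 and Chordc1 were higher in lines 240 and 352, and Hsp90aa1, Dnajb1, Dnajb4, Bag3 and Serpinh1 did not pass. Over the 10 heat-inducible members tested in these lines, 5 were higher and 0 lower, where 5.01% and 5.92% of all genes were. Hspa1a and Hspa1b, which passed the filter through their treated libraries, are 2 of the 5. At an unadjusted p below 0.05 the edgeR test gave 6 of the 10, against 3026 of all 11760 genes. The median log2 fold change of the 10 was 0.40, against -0.0057 over all genes. Hsph1, an HSP110 nucleotide exchange factor for HSP70 (chromosome 5, 149614287 to 149636376), had 202, 132 and 216 CPM in treated cells of lines 240, 242 and 352, against 121, 153 and 112 CPM in controls. It was above its control in lines 240 and 352 and below it in line 242. The log2 fold change in lines 240 and 352 was 0.85 ± 0.11 (edgeR quasi-likelihood adjusted p = 6.81e-04).

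Dnaja1, a J-domain partner of HSP70, had 250, 319 and 235 CPM in treated cells, against 183, 257 and 168 CPM in controls, in the same order of lines. It was higher in the treated library of every line, by 0.45, 0.31 and 0.48 on the log2 scale, although the range of the groups overlapped because line 242 ran above the others in both. The fit of 3 lines gave 0.45 ± 0.14 (edgeR quasi-likelihood adjusted p = 0.842), and that of lines 240 and 352 gave 0.47 ± 0.10 (adjusted p = 0.0147). DESeq2 did not call Dnaja1 in lines 240 and 352 (adjusted p = 0.0640). Chordc1, a cochaperone of HSP90, had 174, 110 and 147 CPM in treated cells and 136, 120 and 109 CPM in controls. It rose by 0.40 ± 0.10 on the log2 scale in lines 240 and 352 (edgeR quasi-likelihood adjusted p = 0.0276), a call lost with DESeq2 (adjusted p = 0.266) and in lane 2 alone (adjusted p = 0.0841). In line 242 its treated library lay slightly below the control.

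Hsp90aa1, the inducible cytosolic HSP90, had 1552, 1109 and 1185 CPM in treated cells, against 1195, 1246 and 877 CPM in controls. Treated cells of lines 240 and 352 were above their controls, and those of line 242 below. Its log2 fold change of 0.40 ± 0.13 in lines 240 and 352 missed the threshold (edgeR quasi-likelihood adjusted p = 0.0599) and passed it with DESeq2 (adjusted p = 0.0150). Dnajb1, a major J-domain partner of HSP70 under stress, had 94.8, 115 and 81.4 CPM in treated cells and 79.8, 102 and 69.0 CPM in controls, a like difference in each line. Its log2 fold change was 0.24 ± 0.11 in lines 240 and 352 (edgeR quasi-likelihood adjusted p = 0.199). Dnajb4, a further J-domain gene, had 0.23 ± 0.14 (adjusted p = 0.321). Bag3, which couples HSP70 to autophagy, had 0.18 ± 0.20 (adjusted p = 0.611), with 4.44, 18.9 and 38.2 CPM in treated cells and 4.94, 12.5 and 32.1 CPM in controls of lines 240, 242 and 352. The gap between lines in Bag3 was therefore wider than that between treatments.

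**Figure D2:**
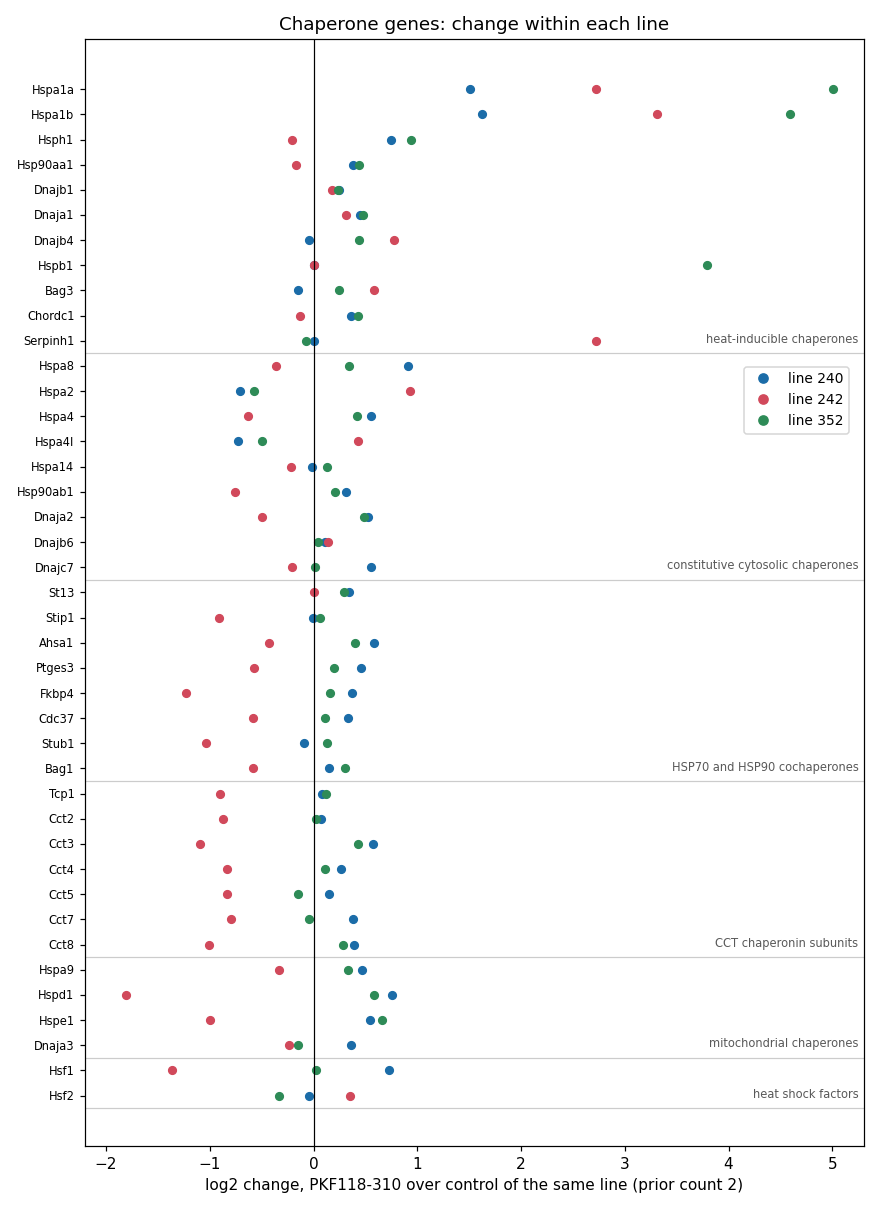
Log2 change of each of the 41 genes in PKF118-310-treated cells over the control of the same line, computed with a prior count of 2, grouped by role and with 1 point per line, not tested. Hspa1a and Hspa1b lie to the right of 0 in all lines, Hspb1 in line 352 alone (it had no counts in the others and is drawn at 0 there), and line 242 lies to the left of 0 for all 7 CCT subunits. The line 242 points of Hspa1a and Serpinh1 each rest on 1 count in treated cells and 0 in control, which shows no difference.

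Constitutive cytosolic members were called in both directions. In lines 240 and 352, 3 of 9 were higher and 1 lower, where 5.01% and 5.92% of all genes were. The median of the 9 was 0.26. Hspa8, the HSC70 of unstressed cells (chromosome 9, 40800984 to 40810087), had 1946, 1048 and 1539 CPM in treated cells of lines 240, 242 and 352, against 1037, 1342 and 1211 CPM in controls. Lines 240 and 352 had log2 changes of 0.91 and 0.35, and line 242 one of -0.36. The fit of lines 240 and 352 gave 0.62 ± 0.15 (edgeR quasi-likelihood adjusted p = 0.0215), or an adjusted p of 0.0521 when only genes with at least 10 counts in every library were kept. Hsp90ab1, the constitutive HSP90, had 4612, 2868 and 4101 CPM in treated cells and 3707, 4834 and 3551 CPM in controls, and its log2 fold change was 0.26 ± 0.15 (adjusted p = 0.294).

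Hspa4 and Hspa4l, 2 members of the HSP110 family, went opposite ways in lines 240 and 352. Hspa4 had 561, 359 and 521 CPM in treated cells, against 383, 554 and 390 CPM in controls, and rose by 0.48 ± 0.11 in these lines (edgeR quasi-likelihood adjusted p = 0.0184). Hspa4l had 68.2, 63.5 and 78.5 CPM in treated cells, against 113, 47.2 and 111 CPM in controls. It fell by 0.60 (SE 0.11) on the log2 scale in lines 240 and 352 (edgeR quasi-likelihood adjusted p = 0.00646) and was the lone member called lower. In line 242 both genes stood the other way round. DESeq2 (adjusted p = 0.0758) and the counts of lane 2 alone (edgeR adjusted p = 0.0875) did not call Hspa4l. Dnaja2, a J-domain partner of HSC70, had 275, 213 and 277 CPM in treated cells and 191, 301 and 198 CPM in controls, and rose by 0.50 ± 0.11 (edgeR quasi-likelihood adjusted p = 0.0106). Hspa2, Hspa14, Dnajb6 and Dnajc7 did not pass, with log2 fold changes of -0.62, 0.07, 0.08 and 0.26 in lines 240 and 352.

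Of the mitochondrial members, 2 of 4 were higher and 0 lower in lines 240 and 352, where 5.01% and 5.92% of all genes were. The median of the 4 was 0.50. Hspd1 (HSP60; chromosome 1, 55077835 to 55088243, minus strand) and Hspe1 (HSP10; chromosome 1, 55088132 to 55091307, plus strand) form the folding chamber of the mitochondrial matrix and its lid. Hspd1 had 1007, 271 and 866 CPM in treated cells of lines 240, 242 and 352, against 598, 950 and 577 CPM in controls. Hspe1 had 184, 82.4 and 199 CPM in treated cells, against 127, 165 and 125 CPM in controls. In both genes the treated libraries of lines 240 and 352 were above both of their controls, and the treated library of line 242 was the lowest of all 6. The log2 fold changes in lines 240 and 352 were 0.67 ± 0.12 for Hspd1 (edgeR quasi-likelihood adjusted p = 0.00544) and 0.61 ± 0.10 for Hspe1 (adjusted p = 0.00368). The 2 genes overlap on opposite strands. The library kit marks strand, but the strand setting of the counting is not given in the sources used here, so they may share reads. Overlaps with other counted genes also touch Dnaja1 (Smu1), Dnajc7 (Cnp and Nkiras2), Stub1 (Jmjd8), Cct8 (Usp16), Tcp1 (Acat3 and Mrpl18) and Dnaja3 (Coro7 and Vasn). Hspa9, the HSP70 of mitochondria, had a log2 fold change of 0.40 ± 0.12 (adjusted p = 0.0530), which passed the threshold with DESeq2, and Dnaja3, its J-domain partner, had 0.07 ± 0.14 (adjusted p = 0.812).

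Cochaperones (1 of 8) and CCT subunits (1 of 7) had 1 call each in lines 240 and 352, both higher, where 5.01% of all genes were. Ahsa1, which stimulates the ATPase of HSP90, had 149, 96.2 and 183 CPM in treated cells and 99.1, 130 and 138 CPM in controls, and rose by 0.48 ± 0.11 (edgeR quasi-likelihood adjusted p = 0.0132), a call lost with DESeq2 (adjusted p = 0.127). The other 7 of 8 cochaperones did not pass: St13 (HIP), Stip1 (HOP, which joins HSP70 to HSP90), Ptges3 (p23), Fkbp4, Cdc37 (which brings kinases to HSP90), Stub1 (the ubiquitin ligase CHIP) and Bag1. Their log2 fold changes lay between 0.03 and 0.32, and the median of all 8 was 0.25. CCT is a barrel of related subunits that folds actin and tubulin. Its subunit gene Cct3 had 541, 225 and 486 CPM in treated cells, against 364, 482 and 362 CPM in controls, and rose by 0.50 ± 0.11 (edgeR quasi-likelihood adjusted p = 0.0160). The remaining 6 of 7 subunits, Tcp1, Cct2, Cct4, Cct5, Cct7 and Cct8, lay between -0.00057 and 0.34 and did not pass, and the median of the 7 was 0.16.

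Neither heat shock factor passed. Hsf1 had 52.0, 15.5 and 81.6 CPM in treated cells of lines 240, 242 and 352, against 31.4, 40.3 and 80.2 CPM in controls, and a log2 fold change of 0.28 ± 0.16 in lines 240 and 352 (edgeR quasi-likelihood adjusted p = 0.285). Hsf2, a related factor, had 51.0, 65.3 and 27.6 CPM in treated cells and 52.6, 51.0 and 34.8 CPM in controls, with -0.21 ± 0.14 (adjusted p = 0.396). HSF1 is known to be switched on as a protein, which transcript counts do not measure.

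**Figure D3:**
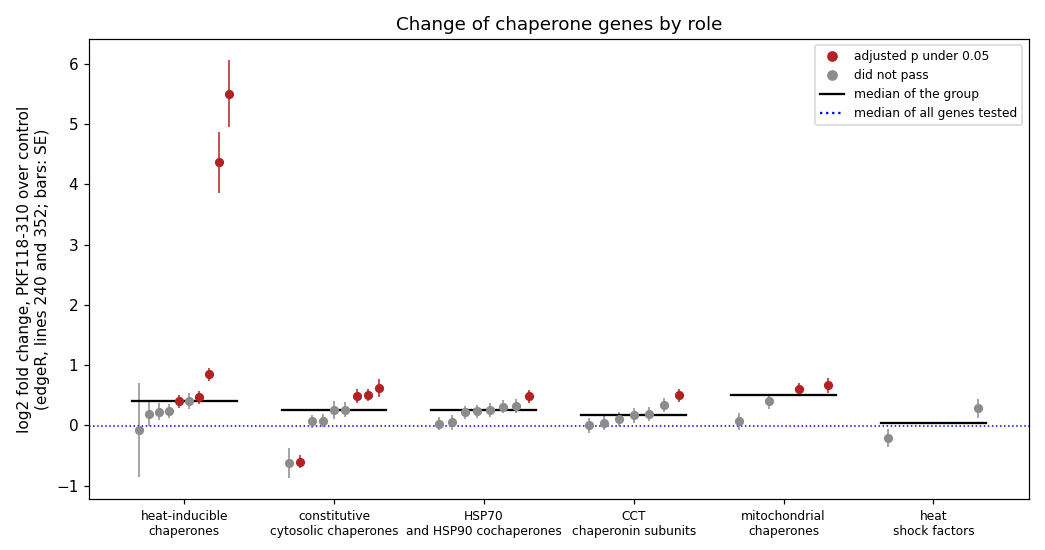
Log2 fold change of PKF118-310 over control in lines 240 and 352 for the 40 tested members by role (edgeR, bars are SE), with calls at an adjusted p below 0.05 in red, group medians as black lines and the median of all genes as a dotted line. Hspa1a at 5.51 and Hspa1b at 4.36 stand far above the other members, which lie between -0.62 and 0.85.

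Set side by side, the median log2 fold change in lines 240 and 352 was 0.40 over 10 heat-inducible members, with 5 higher and 0 lower, and 0.25 over the 30 other members, with 7 higher and 1 lower. The 5 include Hspa1a and Hspa1b, which passed the filter through their treated libraries. Of all genes tested in these lines, 5.01% were higher and 5.92% lower. By line, the median over the 8 heat-inducible members tested in 3 lines was 0.37, 0.25 and 0.43 in lines 240, 242 and 352, and over the 30 other members it was 0.35, -0.60 and 0.13. All 41 members together took 1.95%, 1.12% and 1.82% of the counts in treated cells, against 1.51%, 1.72% and 1.52% in controls. Of the 38 members tested in 3 lines, 5 were higher in treated cells of every line (Hspa1b, Dnajb1, Dnaja1, Dnajb6 and St13), where 13.9% of all genes were, and 0 were lower in every line, where 18.7% were. Members higher in every line were thus about as frequent as over all genes. Of these 5, 3 are among the 8 heat-inducible members tested in 3 lines, a split that was not tested. Hspa1b, 1 of the 3, passed the filter through its treated libraries.

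Of 45 further chaperone genes outside the 41 (prefoldins, the remaining CCT subunits, more J-domain, small heat shock and immunophilin genes), 41 were tested in lines 240 and 352. In these lines 4 were higher and 0 lower, where 5.01% and 5.92% of all genes were, and the median of the 41 was 0.04. The 4 were Cct6a, a CCT subunit (0.39 ± 0.11, adjusted p = 0.0452), Hspbp1, an exchange factor of HSP70 (0.52 ± 0.15, adjusted p = 0.0439), Dnajc2, a ribosome-bound J-domain protein (0.46 ± 0.10, adjusted p = 0.0146) and Ppid, an HSP90-binding immunophilin (0.45 ± 0.11, adjusted p = 0.0198), all by edgeR's quasi-likelihood test. In line 242 each of the 4 was below its control, by log2 changes of -1.07, -1.24, -0.80 and -0.56.

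Line 242 differed from the other lines in many members. A term for line 242 in the fit of 6 libraries (1 residual degree of freedom) called 21 of 38 members, where 22.4% of all genes were called. In 20 the effect of PKF118-310 was lower in line 242 than in lines 240 and 352, where 10.6% of all genes were so called, and in 1, Hspa4l, it was higher, where 11.8% were. The gap was widest for Hspd1, at -2.37 ± 0.23 on the log2 scale (edgeR quasi-likelihood adjusted p = 8.04e-05). All 7 CCT subunits were among the calls, from -1.50 for Cct3 to -0.73 for Cct5, as were 5 of 8 cochaperones, 5 of 9 constitutive cytosolic members and 1 of 8 heat-inducible members, Hsph1.

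The inducible J-domain genes and Hspa1b were not called in that comparison. The gap was -0.05 ± 0.20 for Dnaja1 (edgeR quasi-likelihood adjusted p = 0.883) and 0.04 ± 0.24 for Dnajb1 (adjusted p = 0.938). It was 0.65 ± 0.35 for Dnajb4 (edgeR adjusted p = 0.205) and -0.59 ± 1.5 for Hspa1b (adjusted p = 0.820). In line 242 Hspa1b had 7 counts in treated and 3 in control cells, and a p that misses the threshold does not show that the lines acted alike. The treated library of line 242 is the one with the high mitochondrial share of 11.8%, the markers of other cell types at 58.4 CPM and the lowest total. The part of these in the gap was not tested.

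**Figure D4:**
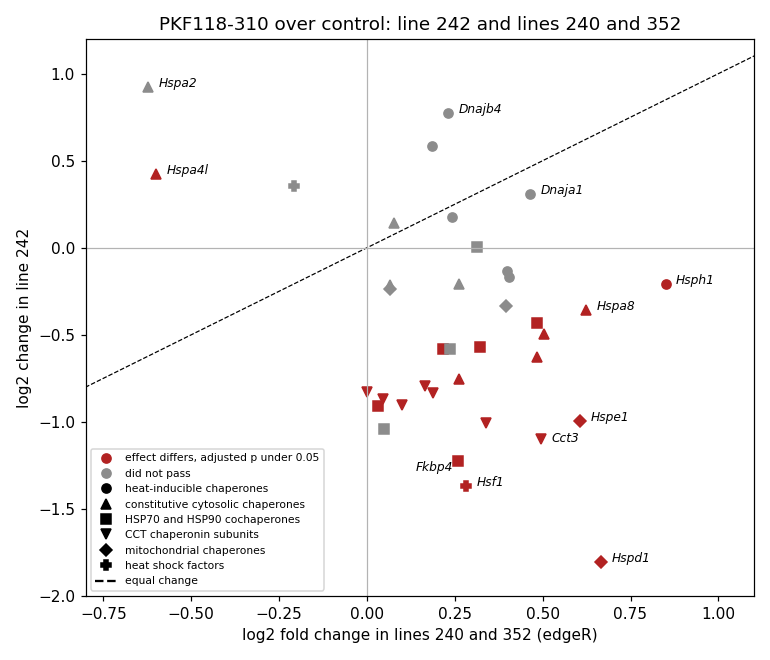
Log2 change of PKF118-310 over control in line 242 (vertical axis, no test) against the log2 fold change in lines 240 and 352 (horizontal axis) for 37 members, with the symbol giving the role and red marking members whose effect in line 242 differed at an adjusted p below 0.05. Hspa1b is left out for scale. Most members lie below the dashed line of equal change, and Hspd1, at 0.67 and -1.81, lies furthest below it.

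Some members also differed between the lines, whatever the treatment. Over the 3 lines, 1 of 38 members differed between lines, where 5.32% of all genes did. It was Bag3 (edgeR quasi-likelihood adjusted p = 0.0334). Between lines 352 and 242, 2 of 40 members differed, where 7.29% of all genes did. Between lines 242 and 240 it was 0 of 38, where 2.05% of all genes did. At an unadjusted p below 0.05 the same test gave 1 member there, against 887 of 10207 genes. In line 352 over line 240, with both treatments in the fit, 17 of 40 members differed, where 44.7% of all genes did. Of these, 12 were higher in line 352, where 24.8% of all genes were, and 5 were lower, where 19.9% were. Bag3 had 553 counts in treated and 439 in control cells of line 352, against 14 and 20 in line 240, a log2 difference of 2.90 ± 0.23 (adjusted p = 6.59e-07). Hspa2, an HSP70 known mostly from the testis, had 1.51 ± 0.28 (adjusted p = 7.35e-04) and Stub1 0.90 ± 0.13 (adjusted p = 1.10e-04).

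Hspa1a and Hspa1b were also called between lines, at 3.71 and 2.01, with few counts in their controls. Controls of lines 240 and 352 held 1 and 5 counts of Hspa1a, and 5 and 11 of Hspa1b. Log2 ratios of CPM with 1 added, line 352 over line 240, were 0.13 for Hspa1a and -0.31 for Hspa1b between controls. Between treated libraries they were 3.30 and 2.34. The added 1 shrinks ratios of such low values, so these do not show that the controls were close. The larger difference of this pair lay in the treated libraries. Hsf1 gave 1.33 between controls and 0.64 between treated libraries, so it stood apart on both sides.

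Of the 17 members that differed between lines 352 and 240, 6 lie on chromosomes 15 and 10, a pattern noticed after their values were seen. All 3 tested members on chromosome 15 were higher in line 352, with log2 differences of 1.01 for Hsf1, 0.57 for St13 and 0.53 for Cct5. The 436 tested genes of chromosome 15 had a median of 0.70, and 86.2% of them were higher in line 352. All 3 tested members on chromosome 10 were lower, at -0.72 for Hsf2, -0.68 for Ptges3 and -0.62 for Cct2. The 579 tested genes of chromosome 10 had a median of -0.47, and 28.3% of them were higher. Over all 11760 genes the median was 0.03. Ratios between controls alone were taken with the same value added to CPM. The control medians in line 352 over line 240 were 0.68 for chromosome 15 and -0.39 for chromosome 10. In line 242 over line 240 they were -0.0033 and 0.0091.

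**Figure D5:**
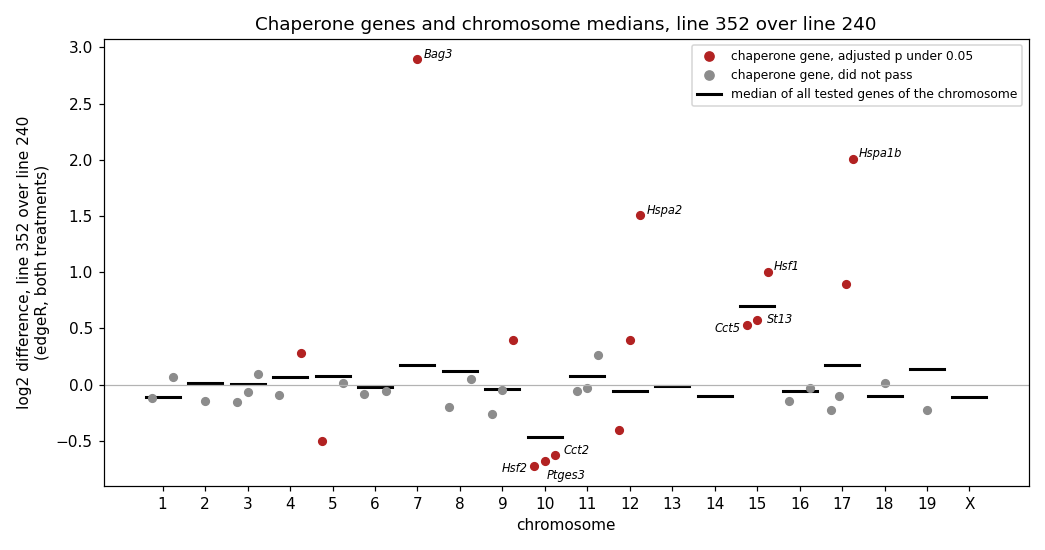
Log2 difference of line 352 over line 240 by chromosome for 38 of the 40 tested members (points, red at an adjusted p below 0.05) and the median of all tested genes of each chromosome (black lines). The medians of chromosomes 15 (0.70) and 10 (-0.47) lie furthest from 0, and the 3 members on each lie on the same side as the median, while Bag3 on chromosome 7 lies far above that of its own. Hspa1a and Serpinh1 are above the axis and not drawn.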

How the data were processed

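The 12 deposited tables hold raw counts per gene made by the authors, 1 table per library and lane. Per the labels, poly(A) RNA was made into stranded libraries and each library was run in 2 lanes. HISAT2, HTSeq, edgeR and the mm10 build are named in the submitters' processing notes, the study's methods name TopHat, and the annotation is not given in the sources used here. Lane counts were summed. Lanes of lines 240 and 242 differed by 0.982 to 1.02 in chi-square per degree of freedom over genes with at least 10 counts, and those of line 352 by 2.01 and 2.05, above sampling noise.

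Treatment and line effects were fitted with edgeR 4.0.16 in R 4.3.3 (filterByExpr, TMM, quasi-likelihood F test, Benjamini-Hochberg adjustment over all genes tested, threshold 0.05), with the cell line as a block. Libraries of 1 line come from the same cells and deviated together from the group means (correlations of 0.674, 0.302 and 0.789 in lines 240, 242 and 352). SE was derived from the log2 fold change and its F statistic. Within-line log2 changes used a prior count of 2. Fold intervals are 95% exact binomial intervals on the counts of a pair of libraries and cover counting error only. DESeq2 1.42.0 and limma 3.58.1 (voom with sample weights) served as alternatives. Fits were also run on simulated data with the same dispersion for every gene and the same effect in every line. Those data held no line that departs as line 242 did, so nothing is concluded from them here. Overlaps use the gene positions of the count tables, and promoter windows came from RefSeq (GRCm38.p6).

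The 41 members, the gene lists and the tests were chosen with earlier results of these data known. All members are accounted for. Full statistics were given for members past the threshold in lines 240 and 352 and for Hspa1a, Hspa1b, Hspa8, Hsp90aa1, Hsp90ab1, Hsf1 and Hsf2, and of the further chaperone genes those past the threshold were named.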

Additional observations from a re-analysis of the deposited data

Results flagged for a closer look

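For 21 members the effect of PKF118-310 in line 242 differed from that in lines 240 and 352 by the edgeR test of the difference itself. As log2 differences, line 242 minus the other lines, the mitochondrial pair had -2.374 (Hspd1) and -1.506 (Hspe1), and Hsf1 had -1.566. The CCT subunits had -1.495 (Cct3), -1.243 (Cct8), -0.924 (Cct4), -0.902 (Tcp1), -0.859 (Cct7), -0.817 (Cct2) and -0.731 (Cct5). The cochaperones had -1.386 (Fkbp4), -0.84 (Stip1), -0.815 (Ahsa1), -0.792 (Ptges3) and -0.7 (Cdc37). Among cytosolic chaperones the values were -1.011 for Hspa4, -0.957 for Hsph1, -0.914 for Hsp90ab1, -0.902 for Dnaja2 and -0.881 for Hspa8, and Hspa4l alone was positive, at 1.128. All of them use the treated library of line 242, with 604984 counts, and its control. For Hspa4l the treated library of line 242 (63.5 CPM) lay near those of lines 240 and 352 (68.2 and 78.5 CPM), while its control (47.2 CPM) lay below theirs (113 and 111 CPM). For Dnaja2 the control of line 242 (301 CPM) lay above theirs (191 and 198 CPM). The part of depth and of the mitochondrial share was not tested.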

How the results depend on the processing

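In 3 lines, where 0 members passed, no filter gave 2 members higher, DESeq2 gave 1, and voom with sample weights gave 3 higher and 1 lower. Leaving out 1 line gave 0 to 12 members higher and 0 to 1 lower, the upper values without line 242. Over all genes, the counts were 260 higher and 52 lower with no filter, 35 and 10 with DESeq2, and 327 and 474 with voom, and leaving out 1 line gave 3 to 589 higher and 0 to 696 lower. In lines 240 and 352, the fit with no replicate block gave 0 members and 0 genes in either direction. All genes there were 315 higher and 403 lower with at least 10 counts in every library, 107 and 158 with DESeq2, and 349 and 404 in lane 2 alone. Hspa4l was not called by DESeq2 or in lane 2 alone, which left 0 members lower, and the heat-inducible median was 0.3537 in lane 2. Of the 13 members called, 13 were shared with DESeq2 size factors and with no filter, 10 with the stricter filter and with lane 2, 12 with lane 1, and 7 with DESeq2, which gave Hspa1a and Hspa1b no adjusted p and did not call Ahsa1, Chordc1, Dnaja1 and Hspa4l. Members that differed between lines numbered 0 to 17 when 1 line was left out.

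Among the members given with full statistics, signs turned in the 3-line fit for 7, none of them called there. Without line 242 the sign also turned for Stip1, Fkbp4, Stub1, Tcp1, Cct2, Cct4, Cct7 and Cct8, none of them called in either fit. With no replicate block Hsf2 gave 0.0714 and Hspd1 0.0349, and in lane 2 alone they gave 0.0875 and 0.0146. With no filter Hsf1 gave -0.0525 and Cct3 -0.0532, and with DESeq2 Hsf1 gave -0.07. With voom Hsp90ab1 gave 0.1254 and Hspd1 0.3397. When each line was left out in turn, the values ran from -0.2591 to 0.2608 for Hsp90ab1, from -0.493 to 0.2809 for Hsf1, from -0.2081 to 0.1734 for Hsf2, from -0.0831 to 0.4832 for Hspa4, from -0.5756 to 0.6661 for Hspd1, from -0.1482 to 0.6065 for Hspe1 and from -0.3035 to 0.4962 for Cct3. The cause was not tested.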
